A study of Rattus norvegicus with 6 samples.

Results

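The genes described here are 33 genes of the sympathetic neuron, the nerve cell that runs in the outer layer of arteries and releases noradrenaline onto their muscle. Each was measured by 1 probe set (a group of short probes reporting 1 transcript) whose platform annotation names that gene alone, out of 18166 genes with such a probe set and 28879 probe sets in all, on microarrays of rat thoracic aorta. The list was chosen by measured values, since sympathetic genes had already been seen at high levels on a single array when it was drawn up. Levels on that array, SHR replicate 1, are therefore given as a description and support nothing. The arrays held total RNA of thoracic aorta from 2 inbred strains at 24 weeks of age: SHR, the spontaneously hypertensive rat, with 3 arrays, and WKY, the related Wistar-Kyoto strain with normal pressure, with 3 arrays. None of the rats had been treated beyond a tail cuff measurement of blood pressure, and fat and connective tissue had been cleaned off the vessels, per the labels. Nothing in the labels ties each array to its own animal, so the spread behind every p-value is that between these arrays and may be technical.

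A sympathetic neuron makes noradrenaline from tyrosine by the enzymes Th, Ddc and Dbh, loads it into vesicles through Slc18a2 and takes it back up through Slc6a2. Its cell body lies in a ganglion beside the spine, where nicotinic acetylcholine receptors receive the signal from the spinal cord, and only its axon reaches the artery. Most of the RNA of a neuron is in the cell body, while the axon endings in the vessel hold little.

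The start regions of 4 genes of noradrenaline synthesis, storage and dense-core vesicles are shown first, as those of the list with the full cAMP response element and, for Dbh, 3 copies of the other motif searched. The RefSeq promoter table (assembly GRCr8) holds 25 of the 33 genes, and the 250 bases before each annotated start were searched on both strands for the cAMP response element TGACGTCA, which reads the same on either strand, and for ATTA, the core bound by Phox2 and many other homeodomain factors. The 2 motifs share no stretch. Capitals mark the matches in the promoters of Th (chr1:207508219-207508468, minus strand), Slc18a2 (chr1:268399771-268400020, plus strand), Dbh (chr3:30886078-30886327, plus strand) and the granin Scg2 (chr9:88256867-88257116, minus strand), each written 5′ to 3′.
Th promoter: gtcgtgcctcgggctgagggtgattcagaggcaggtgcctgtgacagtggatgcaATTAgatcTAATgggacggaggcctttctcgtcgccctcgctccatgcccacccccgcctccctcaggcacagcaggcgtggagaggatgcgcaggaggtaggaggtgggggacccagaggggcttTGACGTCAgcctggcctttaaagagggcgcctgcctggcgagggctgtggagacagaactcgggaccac
Slc18a2 promoter: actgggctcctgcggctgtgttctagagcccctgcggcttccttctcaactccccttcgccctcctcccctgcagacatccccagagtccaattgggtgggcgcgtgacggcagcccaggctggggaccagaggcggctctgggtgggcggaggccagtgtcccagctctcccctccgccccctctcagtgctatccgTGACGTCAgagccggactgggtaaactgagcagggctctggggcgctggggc
Dbh promoter: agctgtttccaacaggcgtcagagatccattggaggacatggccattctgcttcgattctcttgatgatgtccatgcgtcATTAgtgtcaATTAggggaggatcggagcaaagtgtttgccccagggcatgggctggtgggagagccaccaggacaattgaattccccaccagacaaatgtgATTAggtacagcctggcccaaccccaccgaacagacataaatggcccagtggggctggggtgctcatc
Scg2 promoter: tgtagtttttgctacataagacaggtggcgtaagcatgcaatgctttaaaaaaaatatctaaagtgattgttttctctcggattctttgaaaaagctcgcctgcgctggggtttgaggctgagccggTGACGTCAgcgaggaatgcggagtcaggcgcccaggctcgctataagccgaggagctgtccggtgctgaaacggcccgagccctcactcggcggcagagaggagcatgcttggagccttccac

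The full cAMP response element occurred in 3 of the 25 genes, Th, Slc18a2 and Scg2, and in 1.79% of the 27457 genes with a promoter in the table. Its first base lay 69 bases before the start of Th, 52 before that of Slc18a2 and 123 before that of Scg2. The ATTA core occurred in 8 of the 25 genes, among them Th, Ddc and Dbh, and in 58% of all genes. Dbh held 3 copies, beginning 170, 160 and 68 bases before its start, and Hand2, whose promoter is not shown, held 5. These matches describe letters in a window and were not tested for binding.

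Levels are log2 values on which quantile normalization had been run, and no call of presence exists. The medians of the arrays over all probe sets were 2.29 to 2.52, and a level near or under them is not shown to lie above background. Smooth muscle markers, which define the tissue, had means of 9.58 to 9.99 over 6 measured genes on the arrays. Of the 21659 tested probe sets, kept because their mean reached the 25th percentile, 1.17 on the log2 scale, SHR replicate 1 was at least 2 log2 units above every other array on 76, against 0 to 10 for each of the other 5 arrays. WKY replicate 3 was the highest array on 30.5% of tested probe sets and its values were the least spread out (SD 2.12, against 2.22 to 2.27 elsewhere). Results that rest on SHR replicate 1 are therefore given with and without it. In whole tissue, fewer cells of a type and less RNA per cell cannot be told apart.

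Most sympathetic neuron genes were high on SHR replicate 1 and lay close together on the other 5 arrays. SHR replicate 1 was the highest array for 28 of the 33 genes and for 27 of the 31 that were tested (background 16.7% of tested probe sets). It was at least 1 log2 unit above every other array for 19 of them (background 1.11%) and at least 2 for 14 (background 0.351%). These counts describe the values behind the choice of the list. Over the 31 tested genes, SHR replicate 1 lay a median of 1.94 above the median of the other 5 arrays, and over all tested probe sets it lay -0.03 from it. On those 5 arrays the range of a tested member had a median of 0.55, against 0.60 over all tested probe sets. On the same 5 arrays 18 of the 33 genes lay below the array median on every array and 8 lay above it on every array. The 8 were Npy, Syp, Vamp2, Gap43, Hand2, Gata3, Uchl1 and Sncg. An array median has as many probe sets below it as above it. The share of all probe sets that stay on the same side on every array was not counted, so 18 and 8 are not shown to be unusual.

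**Figure D1:**
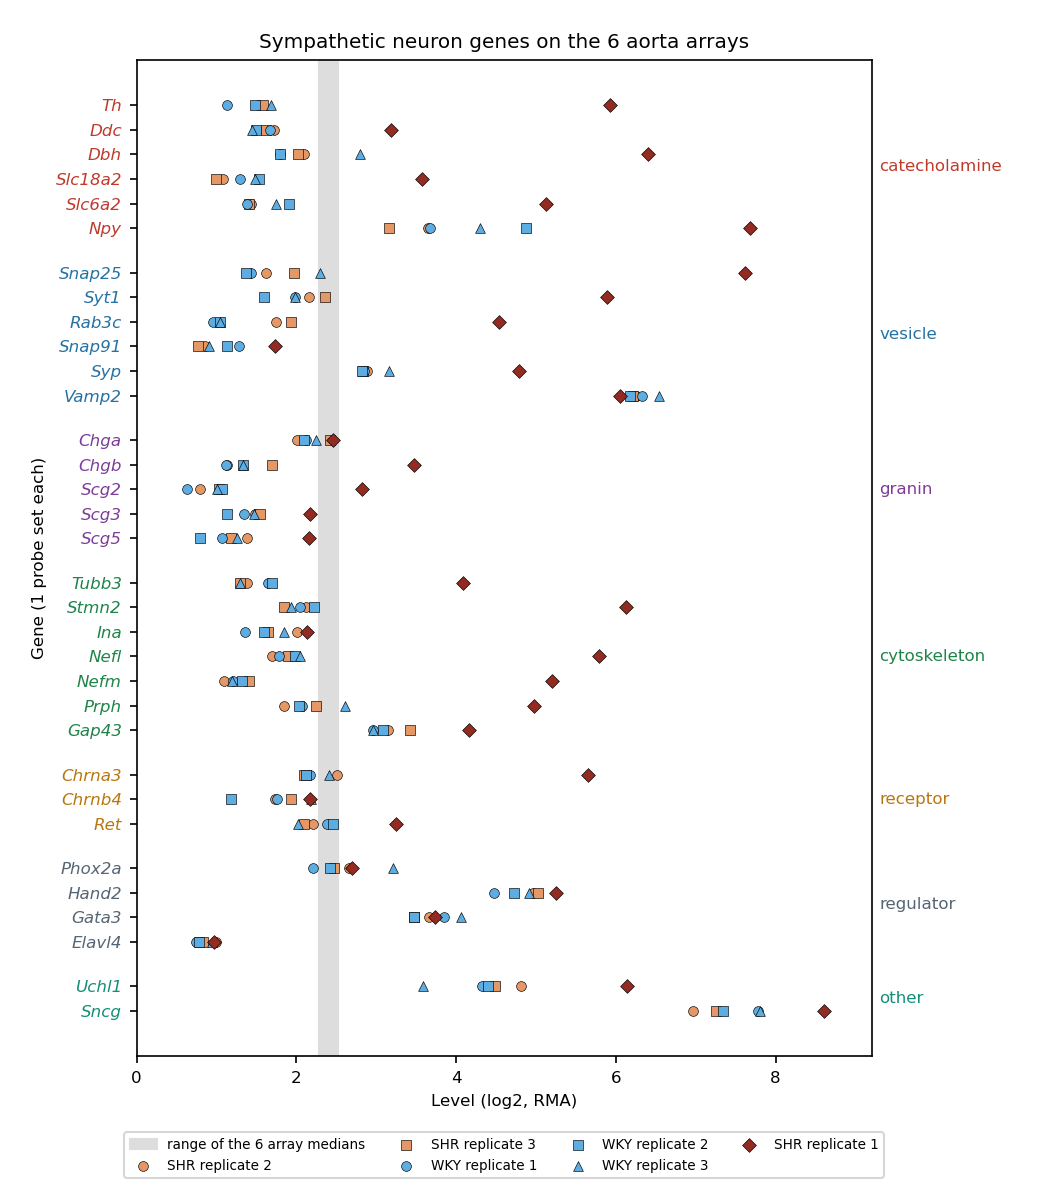
Level (log2) of each of the 33 genes on each array, in blocks by role. Each point is 1 array, diamonds are SHR replicate 1, and the grey band spans the 6 array medians (2.29 to 2.52). For most genes the diamond lies apart to the right, while for Vamp2, Phox2a, Gata3, Chrnb4 and Elavl4 another array is highest.

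The genes of noradrenaline synthesis and transport all stood high on SHR replicate 1, by 1.57 to 4.40 log2 units over the median of the other 5 arrays. Th, the rate-limiting enzyme of catecholamine synthesis, lay at 5.92 on SHR replicate 1, at 1.53 and 1.58 on SHR replicates 2 and 3, and at 1.13, 1.48 and 1.68 on WKY replicates 1 to 3. Dbh, which turns dopamine into noradrenaline inside vesicles, lay at 6.40, 2.10 and 2.02 on SHR replicates 1 to 3 and at 1.80, 1.79 and 2.80 on WKY replicates 1 to 3. For both enzymes 1 array was high, and SHR replicates 2 and 3 lay within the range of WKY for Th and Dbh alike. Ddc, the decarboxylase between these enzymes, lay at 3.19, 1.72 and 1.62 in SHR and 1.68, 1.49 and 1.44 in WKY. It showed the smallest distance of the block.

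Slc6a2, the noradrenaline transporter of the axon, lay at 5.12, 1.43 and 1.41 in SHR and 1.39, 1.91 and 1.75 in WKY. Slc18a2, the vesicular monoamine transporter, lay at 3.57, 1.08 and 0.99 in SHR and 1.29, 1.53 and 1.48 in WKY, so that SHR replicates 2 and 3 were below all 3 WKY arrays. Npy, the peptide released together with noradrenaline, lay at 7.68, 3.65 and 3.16 in SHR and 3.67, 4.87 and 4.29 in WKY. Npy alone of the block lay above the array median on all 6 arrays, and its range of 1.71 on the 5 arrays other than SHR replicate 1 was the widest of all 33 genes.

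The vesicle genes covered the widest span of distances. Snap25, a neuronal SNARE protein of vesicle fusion, lay at 7.61, 1.62 and 1.97 in SHR and 1.43, 1.37 and 2.29 in WKY, and its distance of 5.99 from the median of the other 5 arrays was the largest of the 33 genes. Syt1, the calcium sensor of fusion, lay at 5.89, 2.16 and 2.36 in SHR and 1.99, 1.59 and 1.98 in WKY. Rab3c, a small GTPase of vesicles, lay at 4.53, 1.74 and 1.93 in SHR and 0.96, 1.04 and 1.05 in WKY. For Syt1 and Rab3c all 3 SHR arrays were above all 3 WKY arrays, as for 6 of the 31 tested genes (background 6.48%), while 0 had all SHR arrays lower (background 5.61%). Both counts include SHR replicate 1, whose levels lay behind the choice of the list, and so support nothing. Syp, a vesicle membrane protein, lay at 4.78 on SHR replicate 1 and between 2.82 and 3.16 on the others. Vamp2, a SNARE found in many secreting cells, lay at 6.05 on SHR replicate 1, the lowest array, and between 6.18 and 6.53 on the others. Snap91, a clathrin assembly protein of synapses, lay under every array median, at 1.73 on SHR replicate 1 and between 0.77 and 1.29 elsewhere, and was too dim to be tested.

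The granins, which fill dense-core vesicles, had distances of 0.35 to 2.13 between SHR replicate 1 and the median of the other arrays. Chgb lay at 3.47 on SHR replicate 1 and between 1.12 and 1.70 on the others, and Scg2 at 2.82 and between 0.63 and 1.07. Scg3 and Scg5 lay at 2.17 and 2.16 on SHR replicate 1, under the array medians, and at most at 1.55 and 1.38 elsewhere. Chga, the chromogranin abundant in adrenal medulla, lay at 2.46, 2.00 and 2.42 in SHR and 2.12, 2.09 and 2.25 in WKY. For Chga SHR replicates 1 and 3 were nearly level, with a gap of 0.044.

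Among the cytoskeleton genes the neurofilaments and Stmn2 stood out. Stmn2, a regulator of axonal microtubules, lay at 6.13, 2.12 and 1.85 in SHR and 2.04, 2.23 and 1.93 in WKY. Nefl and Nefm, the light and medium neurofilament subunits, lay at 5.79 and 5.20 on SHR replicate 1, and on the other arrays between 1.69 and 2.04 and between 1.10 and 1.40. Prph, an intermediate filament of peripheral neurons, lay at 4.97 and Tubb3, the neuronal beta tubulin, at 4.08, against at most 2.62 and 1.69 on the other arrays. Gap43, a growth-associated protein of axons and Schwann cells, lay at 4.17 on SHR replicate 1 and between 2.96 and 3.42 elsewhere. Ina, a neuronal intermediate filament, was at 2.13 on SHR replicate 1 and 2.01 on SHR replicate 2, both under the array medians.

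Of the receptors, Chrna3, a subunit of the nicotinic receptor that carries transmission in ganglia, lay at 5.66, 2.51 and 2.10 in SHR and 2.18, 2.12 and 2.42 in WKY. Its partner Chrnb4 did not follow, at 2.17, 1.73 and 1.93 in SHR and 1.76, 1.18 and 2.18 in WKY, all under their array medians. Ret, the receptor kinase for the GDNF family, lay at 3.25 on SHR replicate 1 and between 2.03 and 2.46 on the others. The 3 genes gave unlike distances for the same array.

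The transcription factors that set sympathetic identity showed no such distance. Phox2a lay at 2.70, 2.66 and 2.48 in SHR and 2.21, 2.42 and 3.21 in WKY, with WKY replicate 3 highest. Hand2, also known from the developing heart and vessels, lay at 5.25, 4.96 and 5.03 in SHR and 4.48, 4.72 and 4.91 in WKY, with all SHR arrays above all WKY arrays. Gata3, also a factor of T cells, lay between 3.48 and 4.06 on the 6 arrays with WKY replicate 3 highest. Elavl4, a neuronal RNA-binding protein, lay between 0.74 and 0.996 and was not tested. On SHR replicate 1, 0 of these 4 genes stood 1 log2 unit above the other arrays, and Phox2a, Gata3 and Elavl4 were not highest there, so these identity factors do not bear out the name sympathetic neuron for the list. Of the remaining genes, the neuronal ubiquitin hydrolase Uchl1 lay at 6.14, 4.81 and 4.48 in SHR and 4.32, 4.40 and 3.58 in WKY, and Sncg, a synuclein of peripheral neurons that fat cells also make, at 8.60, 6.97 and 7.25 in SHR and 7.78, 7.34 and 7.81 in WKY.

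**Figure D2:**
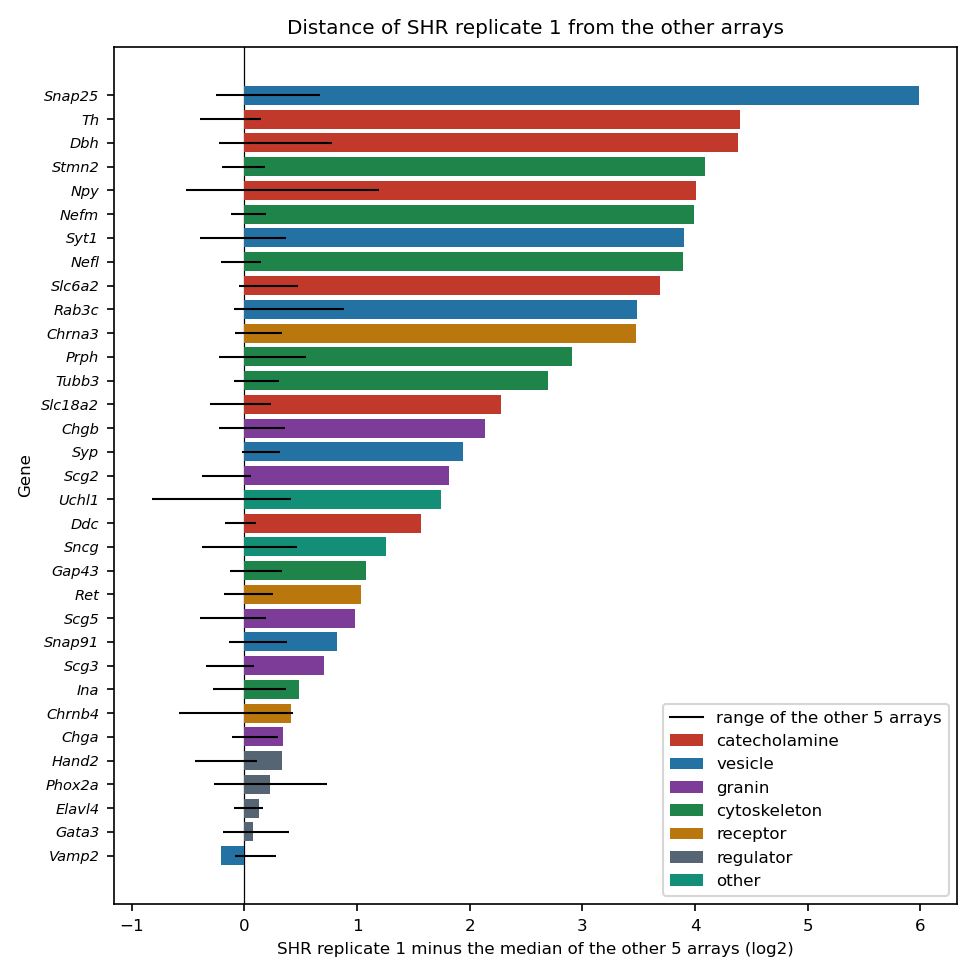
Level on SHR replicate 1 minus the median of the other 5 arrays (log2, bars, coloured by role), with a line for the range of those 5 arrays about their median. Bars run from -0.20 (Vamp2) to 5.99 (Snap25), and the regulators lie at 0.08 to 0.33.

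The comparison of SHR with WKY asked whether these genes differ between the hypertensive and the normotensive strain. On all 6 arrays 0 of the 31 tested genes passed an adjusted p under 0.05 in limma over all tested probe sets (background 0.0693%, 15 probe sets). At an unadjusted p under 0.05, 2 were higher in SHR, Rab3c and Uchl1 (background 3.01%), and 0 were lower (background 2.54%). Measured differences were above 0 for 27 of the 31 genes (background 48.0%), with a median of 0.64, against -0.01 over all tested probe sets. All these counts of members, the 0 passing genes among them, and this median include SHR replicate 1. Its levels lay behind the choice of the list and widen the spread within SHR, so the counts and the median support nothing. The SD within SHR was 2.52 for Th, 2.51 for Dbh and 3.36 for Snap25, against 0.28, 0.58 and 0.52 within WKY. The differences of 1.58 ± 1.09 (SE) for Th, 1.38 ± 1.10 for Dbh and 2.04 ± 1.45 for Snap25 were thus within the spread of the SHR arrays.

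Without SHR replicate 1, the array behind the choice of the list, the differences between the strains were small for most genes. The median over the 31 genes moved from 0.64 to 0.01, against -0.001 over all tested probe sets, and 17 of 31 differences were above 0 (background 49.9%). Of the 31, 10 changed sign, and the share of all tested probe sets that did so was not counted. The 31 include Scg2 and Scg5, which reached the filter only through SHR replicate 1. With the filter taken over the 5 arrays left, these 2 dropped out, 15 of 29 differences were above 0 (background 50%) and the median was 0.008. Again 0 genes passed in limma (background 0.0231%). At an unadjusted p under 0.05, 1 was higher in SHR (background 2.73%) and 2 were lower (background 3.39%). By role, the median difference was -0.16 for the noradrenaline genes, 0.10 for the vesicle genes, 0.15 for the granins, Scg2 and Scg5 included, and -0.08 for the cytoskeleton genes. Th differed by 0.12 ± 0.21 (SE; 95% interval -0.38 to 0.62), Dbh by -0.07 ± 0.33 (-0.85 to 0.71) and Snap25 by 0.10 ± 0.31 (-0.65 to 0.84). These intervals, from 5 arrays, still admit differences in either direction.

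The 3 genes at an unadjusted p under 0.05 without SHR replicate 1 were Rab3c, Npy and Sncg. Rab3c was at 1.74 and 1.93 on the 2 SHR arrays left and at 0.96 to 1.05 in WKY, a difference of 0.82 ± 0.17 (SE; limma adjusted p = 0.249), with every one of these levels under its array median. Npy differed by -0.87 ± 0.36 (limma adjusted p = 0.800) and Sncg by -0.54 ± 0.22 (limma adjusted p = 0.793). Slc18a2 differed by -0.40 ± 0.17 (limma adjusted p = 0.828) and Uchl1 by 0.55 ± 0.29 (limma adjusted p = 0.926). The 2 SHR arrays lay above all WKY arrays for 6 tested genes, Syt1, Rab3c, Scg3, Gap43, Hand2 and Uchl1 (background 11.6%), and below them for 3, Slc18a2, Npy and Sncg (background 10.9%). For Npy and Sncg the white adipocyte and endothelial markers lay the same way between the strains. The 8 white adipocyte markers averaged 6.06 and 4.36 on SHR replicates 2 and 3 against 7.75, 6.32 and 6.41 in WKY, and the 6 endothelial markers averaged 4.74 and 4.16 against 6.03, 5.43 and 5.25. Within WKY, Npy was lowest on replicate 1, at 3.67, where both marker means were highest. Sncg was at 7.78 there and at 7.34 and 7.81 on WKY replicates 2 and 3. The part of these other cells in the differences was not tested.

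**Figure D3:**
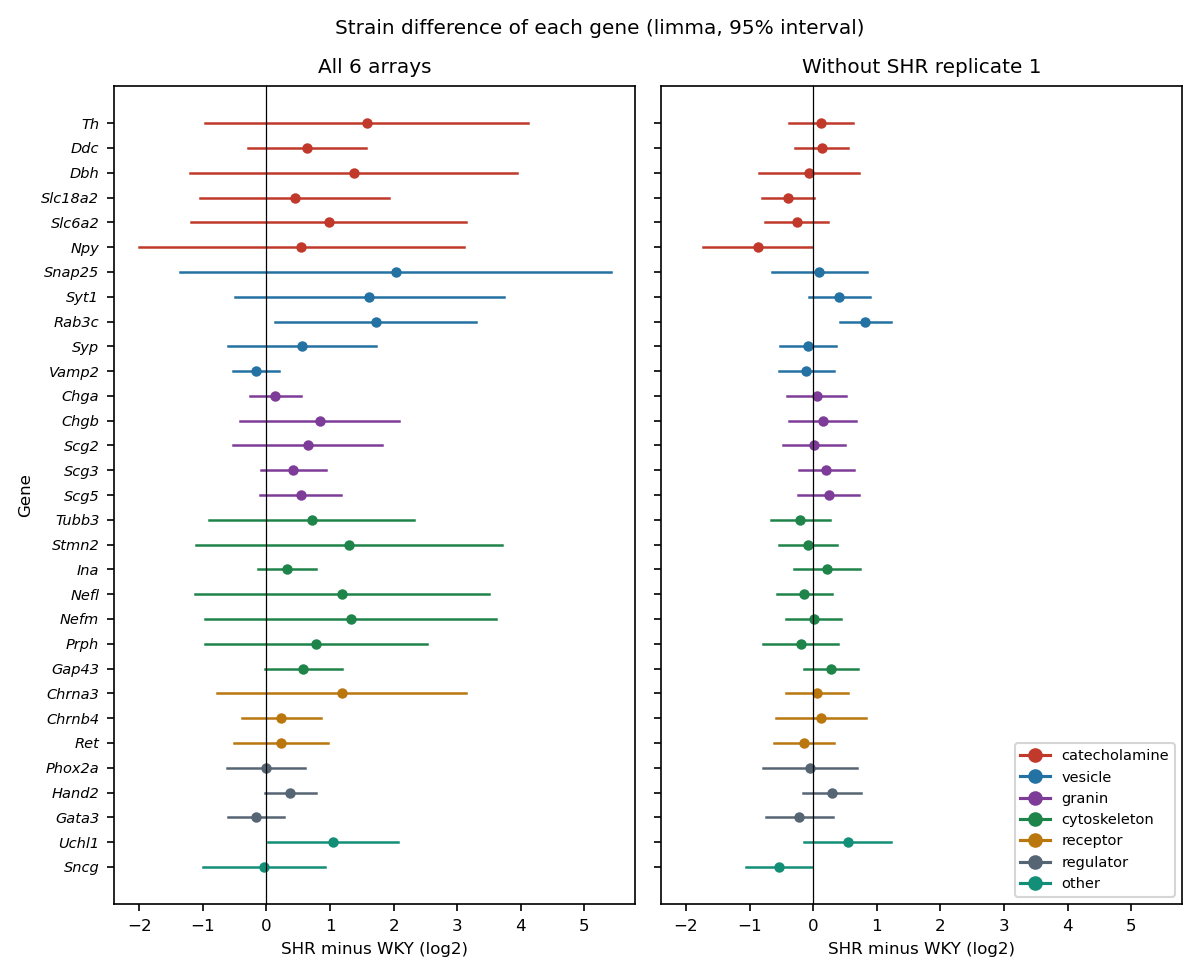
SHR minus WKY (log2) for the 31 tested genes with the 95% interval from limma, on all 6 arrays (left) and without SHR replicate 1 (right), coloured by role. The wide intervals of the left panel narrow on the right, where the points lie between -0.87 (Npy) and 0.82 (Rab3c).

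Other genes of the same pathways were taken from 5 lists made by role. These lists were drawn up with earlier results of these data known, so their counts on SHR replicate 1 are a description and support nothing. Of their 70 tested genes 0 passed in limma, with all 6 arrays or without SHR replicate 1. At an unadjusted p under 0.05 with all 6 arrays, 3 (4.29%) were higher in SHR, Gfra2, Map2 and Tubb2b (background 3.01%), and 0 were lower (background 2.54%). Without SHR replicate 1, 2 (2.86%) were higher, Gfra2 and Tubb2b (background 2.73%), and 3 (4.29%) were lower, Vamp1, Stmn4 and Sema3a (background 3.39%). These shares were near the background. Of 16 measured genes of the vesicle machinery, 3 were at least 1 log2 unit above every other array on SHR replicate 1 (background 1.11%). They were Syn2, a synapsin of nerve endings (5.17 against at most 2.88), Syt4 (3.60 against at most 1.54) and the SNARE Vamp1 (5.86 against at most 4.58). Sypl1, Syt11 and Cadps, which have high means on these arrays, had distances of 0.22, -0.006 and 0.002 from the median of the other arrays.

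Of 20 further axon and cytoskeleton genes, 4 were at least 1 log2 unit above every other array on SHR replicate 1 (background 1.11%), with distances from the median of the others of 2.85 for the reticulon Rtn1, 1.86 for the tubulin Tubb2b, 1.72 for the axonal motor Kif5a and 1.56 for the RNA-binding protein Elavl2. The Tubb2b probe set used here is the brighter one only through SHR replicate 1: on the other 5 arrays it had a mean of 2.67, against 2.84 for another probe set of the gene. That other probe set lay at 2.65 on SHR replicate 1 and 2.65 to 3.09 elsewhere, so the value of Tubb2b depends on the probe set. Map1b, Dpysl2 and Dpysl3, cytoskeletal proteins with high means here, had distances of 0.10, 0.30 and -0.29. In limma on 6 arrays Map2, a microtubule protein, differed by 0.80 ± 0.32 (SE; adjusted p = 0.882), and without SHR replicate 1 by 0.54 ± 0.31 (adjusted p = 0.952). The probe set of Tubb2b used differed by 1.02 and 0.49 in the same fits, and the other one by -0.24 and -0.22. Stmn4, a relative of Stmn2, differed by -0.55 ± 0.29 (adjusted p = 0.923) and by -0.77 ± 0.28 without SHR replicate 1 (adjusted p = 0.713).

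Of 15 measured genes of sympathetic identity, 2 stood at least 1 log2 unit above the others on SHR replicate 1 (background 1.11%): Ngfr, the low-affinity neurotrophin receptor of neurons and Schwann cells (5.15 against at most 3.50), and Gfra2, the neurturin co-receptor (5.93 against at most 4.89). The factors Tfap2b and Insm1 had distances of 0.71 and -0.38. Of 13 measured genes that supply, store or remove noradrenaline beyond the core genes, 0 did so. Among them Slc29a4, a monoamine transporter, had a distance of 1.24, Slc22a3, the extraneuronal transporter, 0.83, the Npy receptor Npy1r 0.61, the amine-degrading Maoa 0.45, the pterin reductase Qdpr 0.16 and the peptide-amidating Pam -0.11. The adrenaline enzyme Pnmt had no probe set naming it alone. Of 7 neurotrophic ligands 0 were highest on SHR replicate 1. Ntf3, neurotrophin 3, was lowest there, at 5.26 against 6.16 to 6.82 on the other arrays, while Sema3a and Bdnf had distances of 0.39 and -0.13.

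Markers of other cell types, in lists also drawn up with earlier results of these data known, were read on the same arrays as a description. Of 12 measured Schwann cell and glial markers 8 were highest on SHR replicate 1 (background 16.7%), and 2 by at least 1 log2 unit (background 1.11%): the cadherin Cdh19, at 4.69 against 1.52 to 2.45, and the neuregulin receptor Erbb3, at 3.80 against 1.95 to 2.57. The summed level of this list was 39.3 to 52.6 in SHR and 42.4 to 45.5 in WKY. Its defining factor Sox10 lay at 3.29 on SHR replicate 1 and 2.85 to 3.46 elsewhere. The Mbp probe set of the list lay at 4.39 on SHR replicate 1 and 3.53 to 5.05 elsewhere, with WKY replicate 1 highest. A dimmer probe set of Mbp lay at 3.96 against 2.21 to 2.85. Of 10 sensory neuron markers 7 lay below the array medians on all 6 arrays and 2 were highest on SHR replicate 1, with sums of 18.7 to 19.4 in SHR and 20.2 to 21.8 in WKY. Of 5 cholinergic or nitrergic markers 0 were highest there, with sums of 6.61 to 7.54 and 7.25 to 7.77. The share of all probe sets below the array medians on all 6 arrays was not counted, for these lists or those that follow.

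Of 7 adrenal cortex markers 5 lay below the array medians on all 6 arrays, with sums of 12.1 to 13.3 in SHR and 12.1 to 13.1 in WKY, and only Mc2r, which fat cells also make, was highest on SHR replicate 1. White adipocyte markers summed to 34.9 to 62.8 in SHR and 50.6 to 62.0 in WKY, with SHR replicate 1 and WKY replicate 1 alike at means of 7.85 and 7.75. Endothelial markers summed to 24.9 to 36.7 in SHR and 31.5 to 36.2 in WKY, fibroblast markers to 54.4 to 63.0 and 59.9 to 61.4, and smooth muscle markers to 57.5 to 59.4 and 58.4 to 59.9. The brown adipocyte list summed to 23.3 to 31.6 and 28.6 to 41.6, skeletal muscle to 14.2 to 14.6 and 14.8 to 18.6, and lymphoid cells to 11.4 to 11.5 and 10.1 to 12.1. No gene of the lists was at or under 0 on any array. The part of Schwann cell, adipocyte, endothelial and lymphoid or plasma cell RNA in the levels of the sympathetic genes was not tested.

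**Figure D4:**
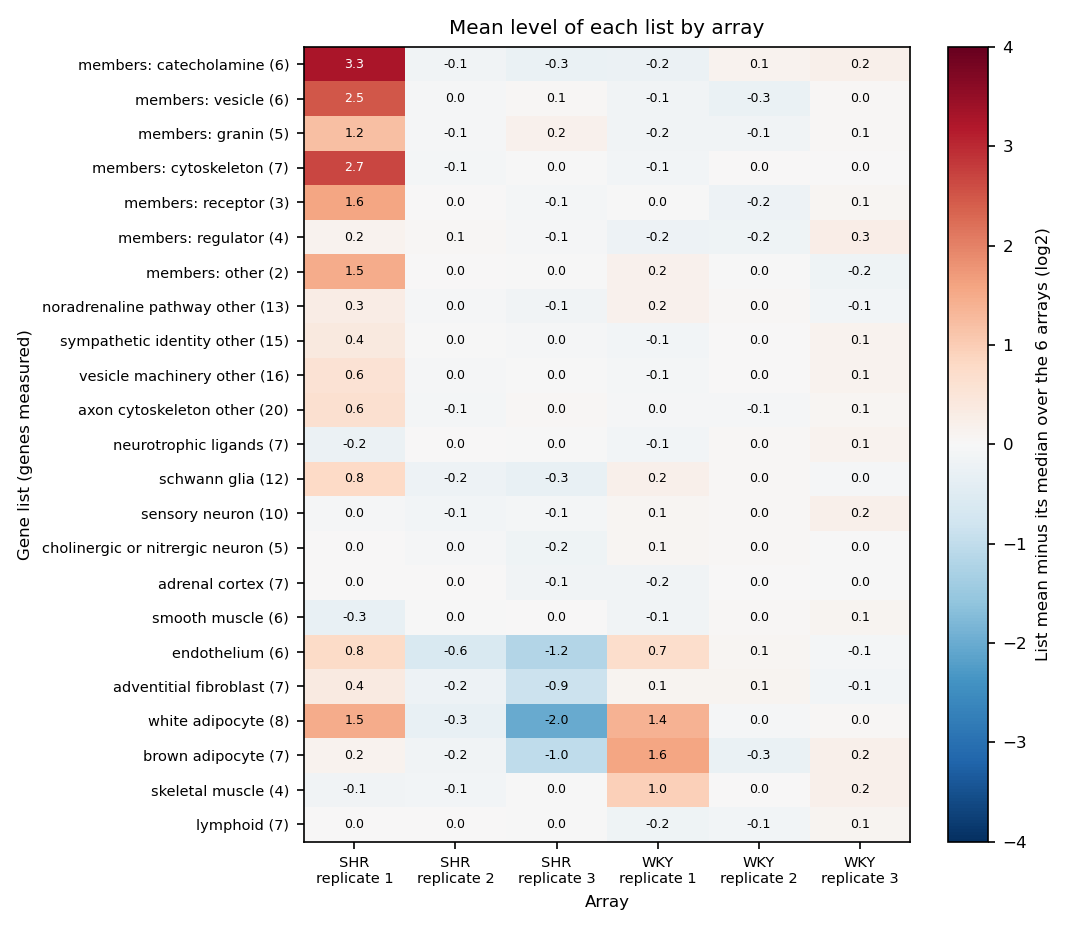
Mean level of each gene list on each array, less the list's own median over the 6 arrays (log2; number of measured genes in brackets). SHR replicate 1 lies 1.2 to 3.3 above 0 in all member rows but that of the regulators (0.2), the white adipocyte list is high on both SHR replicate 1 and WKY replicate 1, and the lists of sensory neurons, cholinergic neurons, adrenal cortex and lymphoid cells stay near 0.

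The genes most like the noradrenaline genes across the 6 arrays were sought among the 152 other named and tested genes with an SD of at least 1, by Pearson's r to the mean of Th, Ddc, Dbh, Slc18a2, Slc6a2 and Npy, each centred on its own mean. The points share the 6 arrays, and r is set mostly by SHR replicate 1. The 10 nearest had r from 0.968 to 0.993: Epb41l3, Stk32a, Cd24, Ighl14, Ppp2r2b, Jchain, Scn9a, Syn2, LOC500161 and LOC500181. Epb41l3, a membrane skeleton protein, lay at 4.83 on SHR replicate 1 and 2.09 to 2.18 elsewhere, and the sodium channel Scn9a at 3.35 and 0.62 to 1.23. Jchain, the joining chain of secreted antibodies, lay at 5.76 and 1.56 to 2.59. Ighl14, LOC500161 and LOC500181 are V segments, the variable parts of antigen receptor genes, in RefSeq, and lay at 4.88, 5.52 and 4.91 on SHR replicate 1 and at most at 2.55, 2.39 and 1.59 elsewhere. Of 34 tested V segment probe sets, 8 were highest on SHR replicate 1 (background 16.7%) and 3 by at least 2 log2 units (background 0.351%). The V segments were counted only after Ighl14, LOC500161 and LOC500181 had been seen among the 10 nearest. Those same 3 make up the second count, so these counts are a description and support nothing. Scn9a (0.62 to 1.23 on the other 5 arrays) and LOC500181 (0.77 to 1.59) reached the filter mean of 1.17 only through SHR replicate 1. Of the 76 probe sets that were highest on SHR replicate 1 by at least 2 log2 units, 14 were sympathetic neuron genes of the list, 21 were other named genes and 41 had no gene name here. Some of the 76 also reached the filter only through that array, and how many did so was not counted. Besides Jchain and the V segments, the 21 held Glycam1, a glycoprotein of lymph node vessels (4.63 against at most 2.26), and Cxcl13, a chemokine that draws B cells (4.80 against at most 2.78), both picked out after their values were seen. Of the 7 measured genes of the lymphoid list, which holds no antibody gene, 2 were highest on SHR replicate 1 and 0 by 1 log2 unit, and 5 lay below the array medians on all 6 arrays. The part of antibody-forming cells in the levels of SHR replicate 1 was not tested.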

How the data were processed

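Total RNA from thoracic aorta was hybridised to 6 Affymetrix Rat Gene 2.0 ST arrays. Per the submitters' processing notes, the authors ran RMA (background correction, quantile normalization, median polish) in Affymetrix Expression Console 1.2.1, and the deposited values were taken to be log2, as RMA gives them (-0.01 to 12.2). The probe sets' genome build is not given in the sources used here; no probe position is printed.

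The members and gene lists were chosen with earlier results of these data known. Of 28879 probe sets, 18511 had 1 gene symbol, 575 had several and 9793 were not listed. Entrez identifiers matched 18394 to RefSeq symbols. Probe sets with a mean at or above the 25th percentile (21659) went into a limma fit (version 3.58.1, R 4.3.3; lmFit and eBayes) on strain, two-sided, with Benjamini-Hochberg adjustment over all of them. Of the 33 members 31 were tested, and Snap91 and Elavl4 were too dim. Since a mean over 6 arrays includes SHR replicate 1, the members Scg2 and Scg5 entered through that array. So did the non-members Scn9a and LOC500181 and further probe sets that were not counted. The fit was tested on simulated data. Sequencing depth does not apply to arrays, whose number limits the precision.

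The text names every member, from each of 5 pathway lists the 3 genes with the highest mean and the 3 with the widest range, and the 10 genes most like the noradrenaline genes. Further genes named because they lay 1 log2 unit above on SHR replicate 1, or at an unadjusted p under 0.05, and cell type markers given singly were chosen after their values were seen. Each list gene is represented by its brightest probe set. Alternatives were a replicate block, other filters, normalizations, variance models, array weights, thresholds and each array left out.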

Additional observations from a re-analysis of the deposited data

How the results depend on the processing

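The count of 0 passing sympathetic neuron genes held in limma under every alternative run, with 0 to 4 genes at an unadjusted p under 0.05 and the smallest limma adjusted p between 0.249 and 0.992. Settings that keep SHR replicate 1 hold the array behind the choice of the list, which widens the spread within SHR. A count of 0 in those settings was favoured in advance and supports nothing. The count of passing probe sets over the whole table, 15, was 3 with a replicate block, 65 with array weights, 30 at an adjusted p under 0.1 and 2 to 5 when 1 array was left out, each of the 6 arrays included. It was also 5 without SHR replicate 1 when the filter was taken over the 5 arrays left, a setting chosen after seeing the data. The median difference of the members, 0.64, ranged from 0.01 (without SHR replicate 1) to 1.02 (without SHR replicate 2). With the 50th percentile as the filter 17 members were tested, with a median of 0.58.

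Of the 31 tested genes 18 kept their sign in every setting (the share over all tested probe sets was not counted). With 1 array left out the others ranged from -0.071 to 2.12 (Dbh), -0.40 to 0.89 (Slc18a2), -0.26 to 1.60 (Slc6a2), -0.87 to 1.39 (Npy), -0.083 to 0.89 (Syp), -0.20 to 1.19 (Tubb3), -0.081 to 2.06 (Stmn2), -0.14 to 1.91 (Nefl), -0.19 to 1.37 (Prph), -0.028 to 0.47 (Chrnb4), -0.14 to 0.44 (Ret), -0.21 to 0.30 (Phox2a) and -0.54 to 0.28 (Sncg). The lowest of these values arose without SHR replicate 1, with either filter, except for Chrnb4 (without WKY replicate 2) and Phox2a (without WKY replicate 1). With array weights Npy was -0.051, Ret -0.034 and Phox2a 0.24. Phox2a was 0.014 after a further quantile normalization and 0.045 after median centring, and Sncg was 0.01 after median centring. Each member had 1 probe set, so the mean over probe sets changed nothing. SHR replicate 1, the highest array for 28 genes, was so for 30 after a further quantile normalization and for 29 after median centring, both chosen after seeing the data. The share of all probe sets highest on SHR replicate 1 was not counted after either step. These counts describe the values behind the choice of the list and support nothing.

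Replicate numbers are shared between the strains. Deviations from the strain means correlated at 0.354, -0.079 and 0.228 for replicates 1, 2 and 3 over tested probe sets. Across unlike numbers they correlated at -0.321 to 0.166. Replicates 1 and 3 thus correlated best with their own number, and replicate 2 did not. The labels state no pairing, and the main fit did not take the numbers to pair the arrays. The replicate block left 3 passing probe sets and 0 passing members. Without detection calls, differences between levels near the array medians are not folds in RNA.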
